A study of Mus musculus with 15 samples.

Results

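Dendritic cells (DCs) of the gut wall that lack CD103 were compared by whether they carry CD11b: 3 arrays of CD103-CD11b- DCs against 3 arrays of CD103-CD11b+ DCs, out of 15 arrays in the series. The members were taken by their labels alone, and the comparison ran over all 19938 genes with a probeset of their own. All cells came from the lamina propria (LP) of the small intestine of untreated WT C57BL/6 mice in steady state, young adults of both sexes by the study's methods, after Peyer's patches had been removed and the epithelium stripped. The DCs were sorted as CD64-, so that macrophages (mϕ) were left out by their high-affinity Fc receptor, and they carry no transgene or deletion. The other 9 arrays, 3 each of CD103+CD11b- DCs, CD103+CD11b+ DCs and CD64+ mϕ, serve as reference. How many mice stood behind an array is not given in the sources used here, so each p-value measures the spread between these samples. Every level is a log2 signal, on which 1 unit is a factor of 2, and every difference is CD103-CD11b- minus CD103-CD11b+ unless stated.

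Conventional DCs pick up antigen in the tissue and carry it to T cells, and they fall into a pair of lineages. cDC1 need the transcription factor IRF8, take up dead cells and cross-present their antigens to CD8+ T cells. cDC2 depend in part on IRF4, carry SIRPα and many C-type lectins, and mostly serve CD4+ T cells. In the gut the CD103+ compartment divides cleanly by CD11b, with cDC1 on the CD11b- side and cDC2 on the CD11b+ side. The CD103- compartment is less well defined, and the comparison asks which genes part its CD11b- from its CD11b+ cells.

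A gene passed when limma gave a Benjamini-Hochberg adjusted p under 0.01 over all genes and a log2 difference over 1. By this rule 71 genes were higher in CD103-CD11b- DCs (0.356% of those tested) and 90 were lower (0.451%). The arrays did not overlap in any of these 161 genes, which the limits nearly fix, against 16.5% of all genes without overlap. Large differences were few: 6 genes were higher and 18 lower by more than 2 log2 units. The genes higher in CD103-CD11b- DCs were led by those of cDC1, and the lower ones by lectins, a chemokine and *Itgam*. The median difference over all genes was -0.0233, and the normalisation between arrays holds it near 0.

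**Figure D1:**
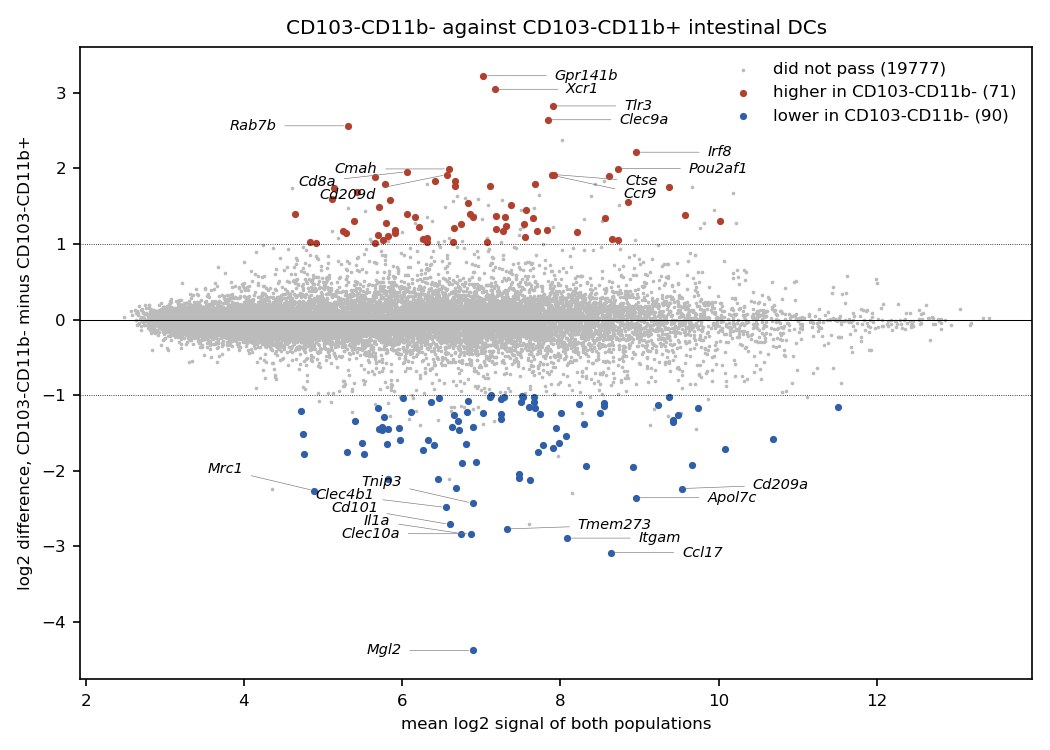
Log2 difference between CD103-CD11b- and CD103-CD11b+ DCs (vertical axis) against the mean log2 signal of both populations (horizontal axis) for 19938 genes. Each point is a gene; coloured points are the 71 that passed as higher and the 90 that passed as lower, and the 12 largest per direction are named. *Gpr141b* and *Xcr1* stand at the top and *Mgl2* alone at the bottom, at -4.37.

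The sort showed in its own genes. *Itgam*, which encodes CD11b, was at 7.02, 6.51 and 6.40 in replicates 1 to 3 of CD103-CD11b- DCs and at 9.51, 9.55 and 9.54 in CD103-CD11b+ DCs, a difference of -2.89 (SE 0.14, adjusted p = 4.34e-08). The CD11b- arrays were thus well apart, yet they did not reach the level of CD103+CD11b- DCs, in which *Itgam* was at 4.93 ± 0.16 (SD, n = 3). *Itgae*, which encodes CD103, was at 8.61, 8.71 and 8.96 and 8.32, 7.54 and 7.66 in the same order. Its difference of 0.92 had an adjusted p of 0.0073 and fell short of the log2 limit, and both populations stayed under the 10.90 ± 0.06 and 10.38 ± 0.16 of the CD103+ subsets. *Fcgr1*, the gene for CD64, lay between 3.70 and 5.02 on the 6 arrays, against 8.92 ± 0.21 in CD64+ mϕ.

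No gene of the conventional DC list passed between the populations. Of 16 measured, 3 had a difference above 0, and the median was -0.209. An unadjusted p under 0.05 was found for 7 in limma, where 12.7% of all genes had one, and for 5 by the methods' *t*-test. *Flt3*, the receptor for the growth factor on which DCs depend, was at 9.94 ± 0.21 without and 9.47 ± 0.09 with CD11b, against 5.31 ± 0.15 in mϕ, and its arrays did not overlap between the CD103- populations (adjusted p = 0.0353). *Zbtb46*, a transcription factor of the conventional lineage, was at 7.11 ± 0.03 and 7.26 ± 0.11, and the MHC class II gene *H2-Ab1* at 12.28 ± 0.03 and 12.33 ± 0.09. *Itgax*, which encodes CD11c, was at 9.87 ± 0.09 and 10.30 ± 0.11, with an adjusted p of 0.0777. *Flt3* thus stood far above mϕ in both populations.

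Genes of cDC1 led the genes that were higher in CD103-CD11b- DCs. Of 18 cDC1 genes measured, 10 were higher and none lower, with a median difference of 1.43, against -0.0233 over all genes. *Xcr1*, the receptor for the chemokine XCL1 and the marker by which cDC1 are usually sorted, was at 8.84, 8.30 and 8.95 in CD103-CD11b- DCs and at 5.52, 5.72 and 5.71 in CD103-CD11b+ DCs. All 3 arrays of the first population were above 8 and all 3 of the second below 6, a difference of 3.04 (SE 0.26, adjusted p = 8.93e-06). *Irf8*, on which cDC1 depend, was at 10.05, 10.11 and 10.05 against 7.72, 7.96 and 7.89, with the replicates of the first almost on top of each other. Its difference was 2.21 (SE 0.18, adjusted p = 5.56e-06).

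*Clec9a*, the lectin with which cDC1 sense actin filaments of dead cells, was at 9.30, 8.73 and 9.46 against 6.50, 6.47 and 6.60, a difference of 2.64 (SE 0.26). *Tlr3*, the sensor of double-stranded RNA in endosomes, was at 9.57, 8.75 and 9.64 against 6.27, 6.58 and 6.64, a difference of 2.82 (SE 0.29). In both genes replicate 2 was the lowest of the CD103-CD11b- arrays, and it was still more than 2 units above every CD103-CD11b+ array. *Rab7b*, a small GTPase of late endosomes, was at 6.55, 6.55 and 6.69 against 4.23, 4.25 and 3.63, a difference of 2.56. *Cd8a*, the α chain of CD8, was at 7.08, 6.94 and 7.11 against 5.40, 4.88 and 4.98, a difference of 1.95. *Cd36*, a scavenger receptor, was at 7.79, 7.24 and 7.78 against 6.23, 5.95 and 6.03, a difference of 1.53. The other members that passed were *Gcsam*, *Naaa* and *Btla*.

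*Gpr141b*, an orphan receptor that is on none of the lists, had the largest difference of the higher genes. It was at 8.51, 8.40 and 9.01 in CD103-CD11b- DCs and at 5.43, 5.12 and 5.70 in CD103-CD11b+ DCs, and its mean in CD103+CD11b- DCs was higher still, at 10.27. The difference was 3.22 (SE 0.20, adjusted p = 4.97e-07). *Cxcr3*, a receptor for interferon-induced chemokines, was at 6.26, 6.68 and 6.86 against 4.53, 5.09 and 4.54, a difference of 1.88. *Ffar4*, a receptor for long-chain fatty acids, was at 6.32, 5.64 and 6.08 against 4.59, 3.99 and 4.21, and *P2ry14*, a receptor for UDP-glucose, at 7.57, 7.44 and 7.66 against 6.26, 5.66 and 5.44. All of these had their highest DC mean in CD103+CD11b- DCs, at 8.38 for *Cxcr3*, 7.85 for *Ffar4* and 8.44 for *P2ry14*.

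**Figure D2:**
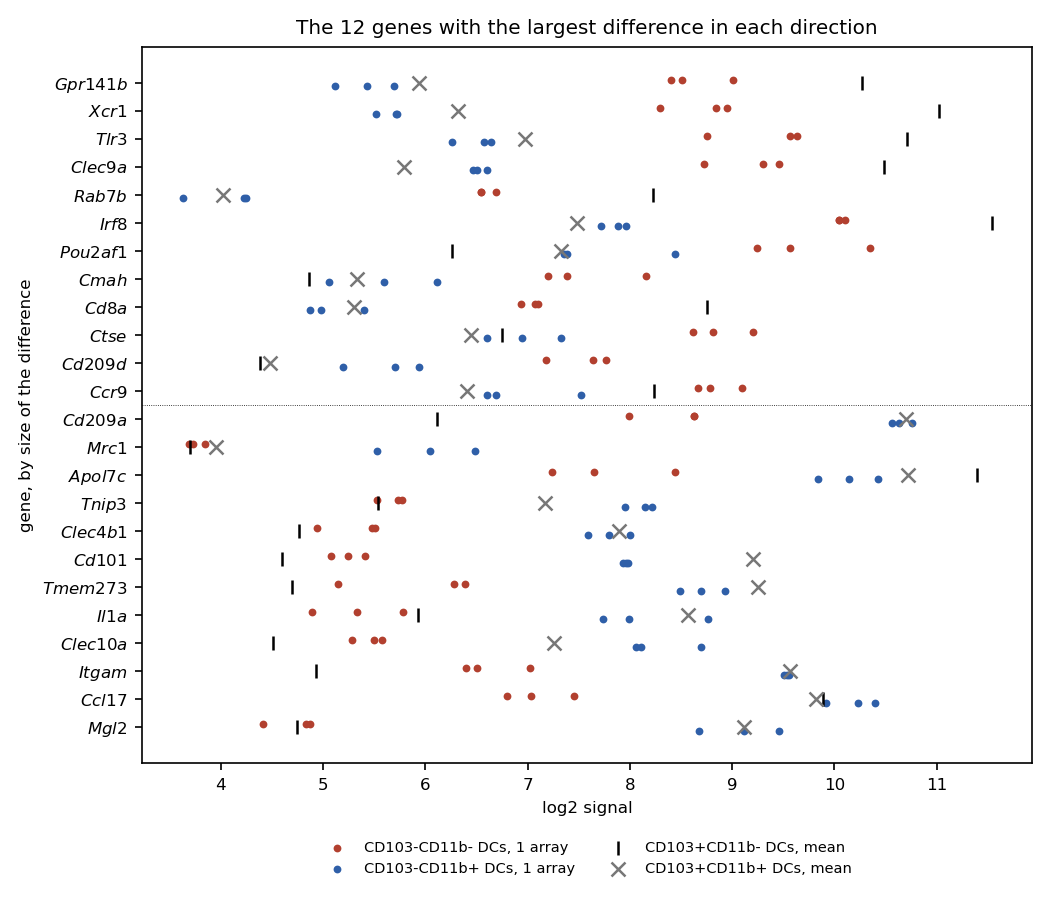
Log2 signal (horizontal axis) of the 12 genes with the largest difference in each direction (vertical axis), with 1 point per array for CD103-CD11b- DCs and CD103-CD11b+ DCs, a tick for the mean of CD103+CD11b- DCs and a cross for that of CD103+CD11b+ DCs. The points of both CD103- populations do not overlap in any of the 24 genes, and for *Xcr1*, *Irf8* and *Clec9a* the CD103-CD11b- points lie between those of CD103-CD11b+ DCs and the tick of CD103+CD11b- DCs.

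The level of the cDC1 genes in CD103-CD11b- DCs was intermediate. Averaged over the 18 genes, the signal was 8.40, 8.09 and 8.55 in CD103-CD11b- DCs. It was lower in CD103-CD11b+ DCs, at 6.88, 6.82 and 6.90, and higher in CD103+CD11b- DCs, at 9.82, 9.72 and 9.89. The 3 populations formed separate steps with no array between them. Against CD103+CD11b- DCs, a comparison that uses the same 3 CD103-CD11b- arrays, 13 of the 18 were lower (1.05% of all genes were) and none was higher (1.61% of all genes were). For *Xcr1* that difference was -2.33 and for *Irf8* -1.47. In a bulk sample, fewer cells of a type and less RNA per cell cannot be told apart.

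Genes of cDC2 moved the other way, though fewer of them passed. Of 17 measured, 6 were lower in CD103-CD11b- DCs and 1 was higher, with a median difference of -0.749. *Mgl2*, a macrophage galactose-type lectin, had the largest difference of all genes. It was at 4.87, 4.41 and 4.84 in CD103-CD11b- DCs, as dim as its mean of 4.75 in CD103+CD11b- DCs, and at 9.11, 8.67 and 9.45 in CD103-CD11b+ DCs, a difference of -4.37 (SE 0.20, adjusted p = 2.51e-08). Its relative *Clec10a* was at 5.50, 5.29 and 5.58 against 8.11, 8.06 and 8.69, a difference of -2.83 (SE 0.17, adjusted p = 2.80e-07). *Cd101*, an inhibitory receptor of the immunoglobulin family, was at 5.25, 5.08 and 5.41 against 7.96, 7.93 and 7.98, a difference of -2.71 (SE 0.12, adjusted p = 2.51e-08). For *Cd101* the 3 CD103-CD11b+ arrays lay close together and far above the others. *Cd209a*, a relative of the lectin DC-SIGN, was at 8.63, 7.99 and 8.63 against 10.76, 10.63 and 10.57, a difference of -2.24. *Clec4a2*, an inhibitory lectin, and *Itgam* itself completed the 6. As the gene of CD11b, by which the cells were sorted, *Itgam* is not independent of the sort.

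Several genes that mark cDC2 were high in CD103-CD11b- DCs as well. *Irf4* was at 8.68, 9.20 and 8.77 in CD103-CD11b- and 8.79, 8.70 and 8.75 in CD103-CD11b+ DCs, so that the arrays overlapped (difference 0.14, SE 0.30, adjusted p = 0.923). *Sirpa*, whose product binds CD47, gave 9.68, 9.34 and 9.36 against 10.23, 10.03 and 9.94, a difference of -0.60 that did not pass (adjusted p = 0.0252). In CD103+CD11b- DCs the same genes were at 6.05 ± 0.28 and 6.07 ± 0.28, far below both CD103- populations. *Zeb2*, a repressor linked to cDC2 and plasmacytoid DCs, was at 6.78, 6.49 and 6.64 against 7.57, 7.51 and 7.59, with an adjusted p of 3.51e-04 and a difference of -0.92, just within the log2 limit. *Ltb*, which encodes the membrane anchor of lymphotoxin, was the 1 gene of the list that was higher, at 8.36, 8.51 and 8.0 against 6.84, 6.73 and 6.94, a difference of 1.45 (SE 0.17, adjusted p = 1.34e-04).

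Averaged over the list, the 17 cDC2 genes were at 7.57, 7.33 and 7.46 in CD103-CD11b- DCs. CD103-CD11b+ DCs had 8.59, 8.50 and 8.63, while the array values of CD103+CD11b- DCs were 5.30, 5.64 and 5.57. Here too CD103-CD11b- DCs lay between, and 12 of the 17 were higher in them than in CD103+CD11b- DCs while none was lower. *S100a4*, a calcium-binding protein of motile cells, was at 10.49 ± 0.25 and 10.47 ± 0.25 in the CD103- populations and 6.61 ± 0.51 in CD103+CD11b- DCs. *Csf1r*, the receptor for the mϕ growth factor, was at 8.26 ± 0.19 and 8.70 ± 0.35 against 5.08 ± 0.26, and *Il22ra2*, a secreted decoy receptor of IL-22, at 10.45 ± 0.32 and 9.18 ± 0.57 against 5.96 ± 0.76. None of these 3 passed between the CD103- populations. The closest was *Il22ra2*, at 10.09, 10.67 and 10.60 against 9.82, 9.01 and 8.71, with no overlap of the arrays and a difference of 1.27 (adjusted p = 0.0512). *Ccr2*, the receptor with which monocytes leave the bone marrow, overlapped between them at 7.92 ± 0.44 and 7.85 ± 0.59.

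The C-type lectins that passed were mostly lower in CD103-CD11b- DCs. Of 30 C-type lectin genes, 10 were lower and 2 higher, with a median difference of -0.187. Apart from *Mgl2*, *Clec10a* and *Cd209a*, the lower ones included *Mrc1*, the mannose receptor, at 3.85, 3.69 and 3.73 against 6.48, 5.53 and 6.05, a difference of -2.26 (SE 0.17). *Clec4b1*, a lectin of the DCIR family, was at 5.48, 4.94 and 5.51 against 7.80, 7.59 and 8.0, a difference of -2.49 (SE 0.16). The β-glucan receptor gene *Clec7a* and the dectin-2 gene *Clec4n* were also among the 10. *Cd209d* went against its family, at 7.64, 7.18 and 7.77 against 5.94, 5.19 and 5.71, a difference of 1.92 (SE 0.17, adjusted p = 1.81e-05). It was also higher than in both CD103+ subsets by its means, at 7.53 against 4.38 and 4.49.

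Chemokines gave a second group of lower genes. Of 30 measured, 7 were lower and 0 higher in the CD11b- cells, with a median difference of -0.258. *Ccl17* and *Ccl22*, both ligands of CCR4, a chemokine receptor of T cells, led them. *Ccl17* was at 7.04, 6.80 and 7.46 against 10.23, 9.92 and 10.40, a difference of -3.08 (SE 0.18, adjusted p = 2.46e-07). *Ccl22* was at 6.98, 6.12 and 6.57 against 8.78, 8.24 and 9.0, a difference of -2.12 (SE 0.23, adjusted p = 7.22e-05). In both genes the CD103-CD11b- arrays were also below the means of both CD103+ subsets, which were 9.89 and 9.82 for *Ccl17* and 8.75 and 9.04 for *Ccl22*. *Ccl6*, a ligand of CCR1, was at 6.63, 6.29 and 6.39 against 8.43, 8.42 and 8.73, a difference of -2.09. *Cxcl16*, the ligand of CXCR6 that also binds oxidised lipid, was at 8.63, 8.69 and 8.66 against 9.64, 9.85 and 9.90, a difference of -1.13 with the smallest error of the 7 (SE 0.08). *Ccl3*, *Ccl2* and *Ccl5* made up the rest, with differences of -1.58, -1.29 and -1.23. Means in CD64+ mϕ were 6.38 for *Ccl17* and 5.50 for *Ccl22*, below both CD103- populations. For *Ccl6*, *Cxcl16*, *Ccl3*, *Ccl2* and *Ccl5* they were 10.3, 10.89, 12.48, 10.33 and 9.54, above both. Without the array of each population that was richest in pancreatic RNA, 4 of the 7 still passed.

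The chemokine receptors that passed were all higher in CD103-CD11b- DCs. Of 21 measured, *Xcr1*, *Ccr9* and *Cxcr3* were higher and none was lower. *Ccr9*, the receptor that brings lymphocytes and plasmacytoid DCs to the small intestine, was at 8.66, 9.10 and 8.78 against 7.53, 6.69 and 6.60, a difference of 1.91 (SE 0.26, adjusted p = 6.07e-04). Its mean in CD103+CD11b- DCs was 8.24. *Itgal*, an integrin chain of LFA-1 with which leukocytes adhere to each other, was at 7.54, 8.10 and 7.08 against 6.63, 5.94 and 6.06, a difference of 1.36 (adjusted p = 0.0064).

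Cytokines of the inflammatory response were lower in CD103-CD11b- DCs where they passed. Of 21 cytokines and inhibitors that shape T cells, 4 were lower and none higher, with a median difference of -0.285. *Il1a*, an alarm cytokine, was at 5.78, 4.89 and 5.33 against 8.76, 7.99 and 7.74, a difference of -2.83 (SE 0.32, adjusted p = 1.23e-04). *Tnf* was at 7.03, 7.13 and 7.34 against 8.61, 8.72 and 9.04, a difference of -1.63 (SE 0.19, adjusted p = 1.73e-04). *Osm*, which encodes oncostatin M, and *Ebi3*, the shared chain of IL-27 and IL-35, gave -1.52 and -1.24. For *Tnf* the CD103-CD11b- arrays were the lowest of all DC subsets, as the CD103+ means were 8.80 and 8.33.

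Costimulators followed. Of 23 measured, 3 ligands of the TNF family were lower and none was higher, with a median of -0.265. *Tnfsf9*, the ligand of the costimulator CD137, was at 8.39, 7.84 and 7.59 against 10.06, 9.97 and 9.64, a difference of -1.95 (adjusted p = 0.0016). *Tnfsf8*, the ligand of CD30, was at 5.35, 4.63 and 5.06 against 6.65, 6.21 and 6.56, a difference of -1.46. *Tnfsf13b*, which encodes the B cell survival factor BAFF, gave -1.03. *Tnip3*, an inhibitor of NF-κB signalling, was among the 12 largest lower genes, at 5.73, 5.53 and 5.77 against 8.22, 8.15 and 7.96, a difference of -2.43 (SE 0.28). *Tmem273*, a membrane protein on none of the lists, was among them too, at 6.28, 5.15 and 6.39 against 8.70, 8.49 and 8.93. Of 19 immediate early and heat shock genes, which respond to handling of cells as well as to stimuli, *Egr2* and *Atf3* were lower, with differences of -1.94 and -1.16, and none was higher. The median of that list was -0.279, and its part in the other lists was not tested.

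*Aldh1a2* was the 1 gene that passed among 21 of retinoic acid synthesis and reception. It encodes the retinal dehydrogenase with which gut DCs make retinoic acid, a vitamin A product that imprints gut homing on lymphocytes. The signal was 6.11, 5.74 and 6.21 in CD103-CD11b- DCs and 7.42, 7.27 and 7.17 in CD103-CD11b+ DCs, a difference of -1.27 (SE 0.12, adjusted p = 2.57e-05). CD103-CD11b- DCs had the lowest mean of the DC subsets, as the CD103+ subsets had 7.97 ± 0.07 without and 7.53 ± 0.04 with CD11b. It was above the 5.17 ± 0.16 of CD64+ mϕ.

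The genes on the list of those induced by interferon that passed were lower in CD103-CD11b- DCs. Of 25 measured, 6 were lower and none higher, and the median difference was -0.401. *Oas1a* and *Oas2*, synthetases of the oligoadenylate signal that activates RNase L, were at 5.88, 5.58 and 6.48 against 7.61, 7.21 and 8.08 and at 5.60, 4.86 and 4.89 against 6.46, 6.03 and 6.37. *Ifit3* and *Ifit2* were at 6.11, 5.73 and 5.91 against 7.62, 6.91 and 7.48 and at 5.37, 4.67 and 5.24 against 6.71, 6.23 and 6.70. Groups did not overlap in any of these 4, and the differences were -1.65 for *Oas1a*, -1.45 for *Ifit2*, -1.42 for *Ifit3* and -1.17 for *Oas2*. *Oasl2* gave -1.42, and *Gbp3*, a guanylate-binding protein, gave -1.0. *Ifi205*, an interferon-activated gene that is not on the list, was higher, at 10.21, 10.04 and 10.50 against 8.59, 8.27 and 8.64. Its difference was 1.75 (limma adjusted p = 2.85e-04), and its mean in CD103+CD11b- DCs was 11.13. In CD64+ mϕ *Oas1a* was at 8.64 ± 0.17. Without the arrays richest in pancreatic RNA none of the 6 passed, at a median of -0.377, and without those richest in RNA of Brunner glands 3 did.

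The promoters of the genes that passed were read for short motifs. RefSeq windows of 300 bases, from 250 before to 50 after a gene's start on GRCm38.p6, were found for 15614 of the genes, among them 52 of the higher and 69 of the lower ones. The core of the interferon-stimulated response element, GAAANNGAAA on either strand, was in 13 of the 69 lower and 4 of the 52 higher genes, and in 3.89% of all windows. The 150 bases before the start follow for 3 genes of the interferon list and for 2 of the 12 lower genes with the largest difference, to show where it lies, with each match in capitals.
Oas1a: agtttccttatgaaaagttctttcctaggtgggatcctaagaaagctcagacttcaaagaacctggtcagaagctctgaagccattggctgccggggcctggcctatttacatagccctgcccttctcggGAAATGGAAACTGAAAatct
Ifit3: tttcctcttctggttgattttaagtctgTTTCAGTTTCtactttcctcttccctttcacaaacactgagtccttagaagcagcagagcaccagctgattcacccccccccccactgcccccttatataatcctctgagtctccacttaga
Gbp3: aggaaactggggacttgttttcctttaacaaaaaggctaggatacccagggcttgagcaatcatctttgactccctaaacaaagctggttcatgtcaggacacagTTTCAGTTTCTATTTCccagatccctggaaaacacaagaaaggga
Apol7c: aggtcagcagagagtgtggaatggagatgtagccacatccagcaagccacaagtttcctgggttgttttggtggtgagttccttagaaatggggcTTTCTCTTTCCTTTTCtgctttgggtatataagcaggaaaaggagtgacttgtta
Clec4b1: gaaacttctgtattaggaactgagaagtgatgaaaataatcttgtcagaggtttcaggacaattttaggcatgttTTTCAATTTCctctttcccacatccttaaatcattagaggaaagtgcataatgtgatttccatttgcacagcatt

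They lie at chr5:120907526-120907675 (minus strand) for *Oas1a*, chr19:34583379-34583528 (plus strand) for *Ifit3*, chr3:142559894-142560043 (plus strand) for *Gbp3*, chr15:77533316-77533465 (minus strand) for *Apol7c* and chr6:123049812-123049961 (plus strand) for *Clec4b1*, each upstream of the first exon and printed 5′ to 3′ on the gene's strand. Capitals longer than 10 bases are overlapping matches. *Apol7c*, an apolipoprotein L of DCs, was at 8.44, 7.24 and 7.65 in CD103-CD11b- and 10.43, 10.14 and 9.84 in CD103-CD11b+ DCs, a difference of -2.36 (SE 0.29, adjusted p = 2.88e-04). The composite of an ETS and an IRF site, GGAANNGAAA, which overlaps the former in 8 letters, was in 3 of 52 higher and 2 of 69 lower genes, and in 2.98% of windows. In all, 8 patterns were searched on both strands. TTTCNNTTTCNNTTTC, a triple form of the first, was in 0 higher and 3 lower genes (0.128% of windows), GAAANNNNTGA in 1 and 3 (4.89%), and the AP-1 site TGANTCA in 4 and 8 (8.08%). GGGNNNNNCC, a loose κB site, was in 32 and 41 (62.2%), the stricter GGGANTTNCC in 2 and 1 (1.45%), and the E-box CANNTG in 43 and 51 (71.6%). A match says that these letters occur, not that a factor binds.

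Receptors of other kinds gave smaller groups. Among 29 paired receptors, which activate or inhibit myeloid cells, *Cd101* and *Pilrb1* were lower and *Siglech* higher, with a median of -0.499. Of 11 Fc receptor genes, *Fcgr3* was lower, at 6.29, 5.07 and 5.24 against 7.18, 6.66 and 7.55, a difference of -1.60 (adjusted p = 0.0026). Its mean in CD64+ mϕ was 10.45. Of 21 genes of eicosanoid metabolism, *Hpgd*, which breaks down prostaglandins, and the leukotriene receptor genes *Ltb4r1* and *Cysltr1* were lower, with differences of -1.54, -1.45 and -1.15. Of 15 complement genes, *Cd55*, which protects cells from complement, was higher, at 5.31, 5.42 and 5.28 against 4.09, 3.65 and 4.10, and none was lower. Without CD103-CD11b- replicate 1, 4 were lower: *C1qa*, *C1qb*, *C1qc* and *C3ar1*, which mϕ express as well. Among 19 genes of MHC class II and antigen processing, *Ctse*, the gene of the endosomal protease cathepsin E, was higher, at 8.81, 9.20 and 8.62 against 7.33, 6.60 and 6.95, a difference of 1.92 (adjusted p = 0.0015).

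In other lists 1 or a few genes passed, each named above. They were *Tlr3* among 17 Toll-like receptors and adaptors, *P2ry14* among 15 purinergic genes, and *Itgal* as higher and *Itgam* as lower among 19 integrins. *Cd36* was higher and *Cxcl16* lower among 20 scavenger and uptake receptors, and *Ccl17*, *Ccl22* and *Ccl5* were lower among 23 genes of DC maturation and migration. Of 38 transcription factors of DC lineages, *Irf8* alone passed.

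Some lists gave no call. Limma called none of 27 genes of TGFβ ligands, receptors and SMADs (5 by limma's unadjusted p under 0.05, 5 under the *t*-test of the methods) and none of 25 of the Notch pathway (5 and 6). Over all genes 12.7% had such a p in limma. The same held for 14 genes of MHC class I (2 and 3), 14 myeloid growth factor receptors (4 and 2) and 23 genes of the cell cycle (1 and 0). It held as well for 14 S100 genes (1 and 1), 17 of inflammasomes and NOD-like sensors (8 and 5) and 9 of the NADPH oxidase (4 and 3). The inflammasome list had a median of -0.315 and the others lay between -0.104 and 0.069.

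**Figure D3:**
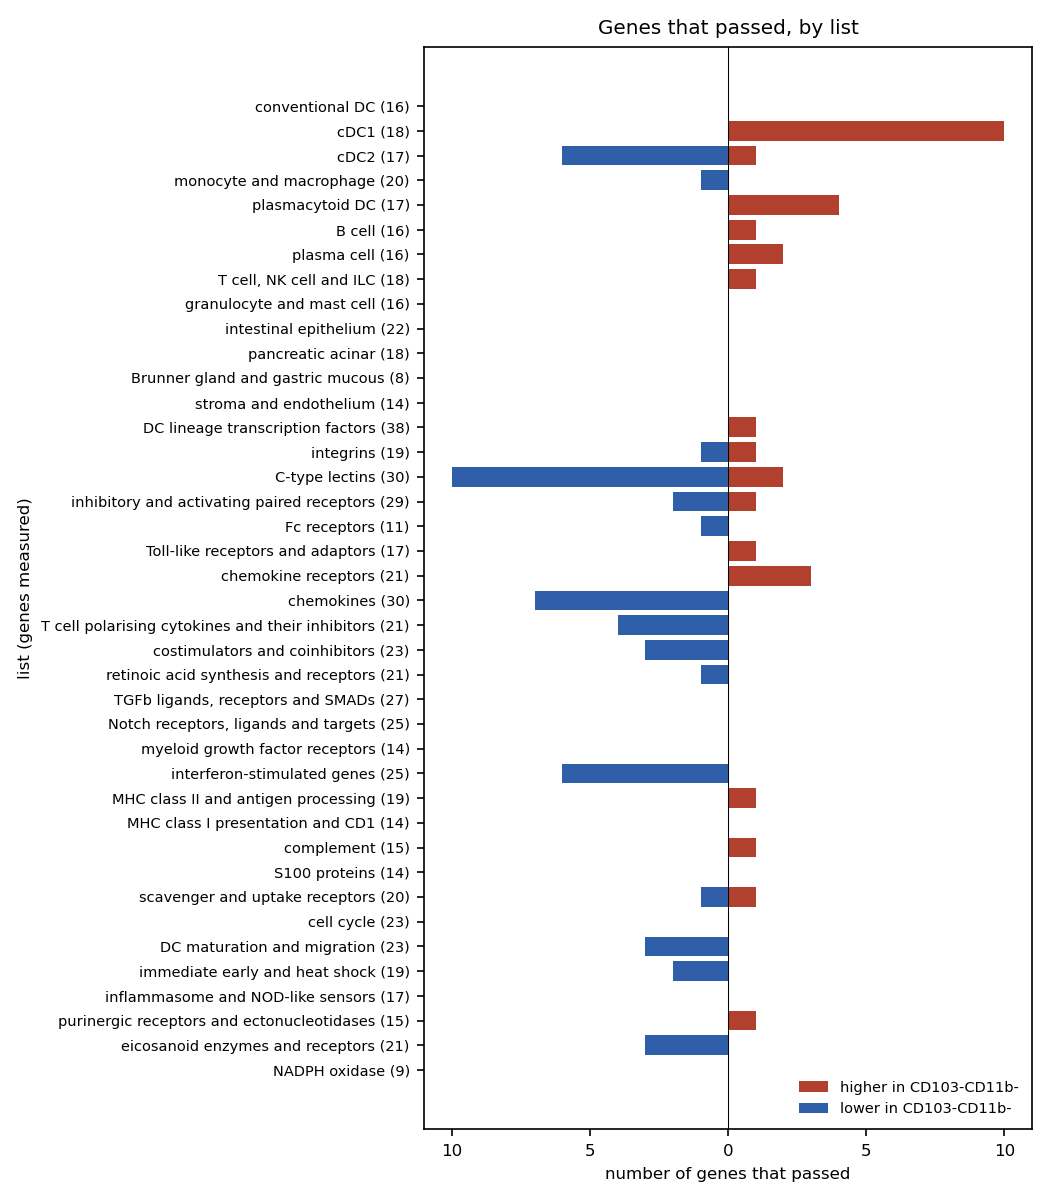
Number of genes (horizontal axis) of each list (vertical axis, with the number measured) that were higher or lower in CD103-CD11b- than in CD103-CD11b+ DCs. The cDC1 list stands out to the right with 10 of 18, and C-type lectins to the left with 10 of 30.

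Genes of lymphoid cells and of plasmacytoid DCs were also among the higher ones. Of 17 genes of plasmacytoid DCs, which make type I interferon, 4 were higher and none lower, with a median of 0.364. *Siglech*, a sialic acid-binding receptor of these cells, was at 6.79, 6.20 and 5.84 against 5.11, 4.14 and 4.51, a difference of 1.69 (SE 0.26, adjusted p = 0.0019). *Ly6d*, a surface protein of lymphoid progenitors, was at 9.88, 9.77 and 9.06 against 8.39, 7.44 and 7.19, a difference of 1.89 (SE 0.32, adjusted p = 0.003). In both genes replicate 1 was the highest array within each population. *Cd300c* and *Ccr9* were the other members. *Ccr9* also passed as higher in CD103+CD11b- than in CD103+CD11b+ DCs, by 1.83. *Bst2*, which is on the list and is induced by interferon, was at 9.90 ± 0.31 and 9.50 ± 0.16 and did not pass.

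Of 16 genes of plasma cells, *Pou2af1* and *Tnfrsf17* were higher and none was lower, and the median of that list was 1.03. *Tnfrsf17*, the receptor BCMA, was at 8.32, 9.09 and 8.31 against 7.16, 6.36 and 6.81, a difference of 1.80 (SE 0.27, adjusted p = 0.0014). *Pou2af1*, a coactivator of immunoglobulin genes, was at 9.25, 10.35 and 9.57 against 8.44, 7.38 and 7.35, a difference of 2.0 (SE 0.37, adjusted p = 0.0062). With the replicate number as a block its adjusted p became 0.0104, which ends the call. Of the 16, 14 had a difference above 0, where the median over all genes was -0.0233. In 11 the CD103-CD11b- arrays lay wholly above the others, against 16.5% of all genes without overlap in either direction. Among the immunoglobulin genes, *Igha* was at 11.24, 9.46 and 9.78 against 11.46, 9.96 and 10.31, and *Ighm* at 11.90, 10.20 and 10.57 against 11.80, 10.52 and 10.71, with overlap in both. Over its 3 probesets the difference of *Ighm* ran from -0.12 to 0.39, and *Igkc* and *Iglv1* were not analysed here. *Jchain*, which joins IgA and IgM units, was at 12.29, 12.45 and 12.05 against 12.06, 11.45 and 11.67, a difference of 0.54 (adjusted p = 0.221). Averaged over the 16 genes, the signal was 9.37, 9.95 and 9.33 in CD103-CD11b- DCs and 8.97, 8.28 and 8.42 in CD103-CD11b+ DCs. The mean in CD64+ mϕ was 8.58.

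Of 16 B cell genes, *Blnk*, an adaptor of the B cell receptor that myeloid cells also use, was higher, at 7.25, 7.63 and 7.10 against 6.08, 5.24 and 5.16, a difference of 1.83 (adjusted p = 0.0027). *Cd79a* and *Cd79b*, the signalling chains of the receptor, were at 8.04, 8.20 and 7.66 against 7.31, 6.21 and 6.61 and at 8.69, 9.49 and 8.71 against 8.11, 7.13 and 7.68. Their arrays did not overlap, and their adjusted p of 0.0208 and 0.0187 missed the limit. *Cd8b1*, the β chain of CD8, was the 1 of 18 genes of T cells, NK cells and innate lymphoid cells that was higher, at 6.0, 5.75 and 5.83 against 4.85, 4.61 and 4.71, a difference of 1.14. In CD103+CD11b- DCs, where *Cd8a* was at 8.76 ± 0.21, it was at 4.70 ± 0.23. *Cmah*, which makes a form of sialic acid, was at 7.20, 8.16 and 7.38 against 6.12, 5.06 and 5.60, a difference of 1.99 (adjusted p = 9.39e-04). It was among the 12 largest higher genes and, like *Pou2af1*, its CD103-CD11b- array of replicate 2 was the highest.

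Markers of other tissues differed between arrays of the same population. Averaged over 18 genes of pancreatic acinar cells, the signal was 5.57, 8.10 and 6.06 in CD103-CD11b- DCs and 4.95, 5.04 and 7.27 in CD103-CD11b+ DCs. *Ctrb1*, the gene of chymotrypsinogen, ran from 6.85 to 11.74 in the first population and from 4.78 to 10.70 in the second. For 8 genes of Brunner glands and gastric mucous cells the signal was 7.24, 5.40 and 5.79 against 4.46, 5.37 and 5.60, and the stomach gene *Gkn2* was at 8.99, 3.62 and 3.82 against 3.70, 3.75 and 3.78. Limma called none of the acinar genes (1 by limma's unadjusted p under 0.05, 1 under the *t*-test of the methods) or of the gland genes (1 and 0), at medians of 0.764 and 1.04. It called none of 22 genes of the intestinal epithelium (1 and 1), whose averages were 7.21, 6.72 and 7.10 against 6.84, 6.61 and 6.84. None was called among 16 genes of granulocytes and mast cells (3 and 0) or 14 of stroma and endothelium (1 and 1), whose medians were 0.012 and 0.014. Markers of mϕ averaged 7.05, 6.07 and 6.23 against 7.25, 6.96 and 7.36 over 20 genes, and were at 9.88 to 10.10 in CD64+ mϕ. In the fit of all arrays *Adgre1*, the gene of F4/80, was the 1 of them that was lower, at 5.56, 4.68 and 5.27 against 7.25, 6.23 and 6.81. Several others were high in replicate 1 of the CD103-CD11b- arrays. *Apoe*, a lipid carrier of mϕ, was at 10.77, 8.0 and 8.22 against 10.55, 10.25 and 10.54, and *C1qc*, a chain of complement C1q, at 9.58, 5.72 and 5.73 against 9.54, 8.76 and 9.60. Without that array 8 of the 20 were lower: *Adgre1*, *Apoe*, *C1qa*, *C1qb*, *C1qc*, *Cd14*, *Fcgr1* and *Ms4a7*. The median of the list was -0.424 with it and -0.547 without it.

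**Figure D4:**
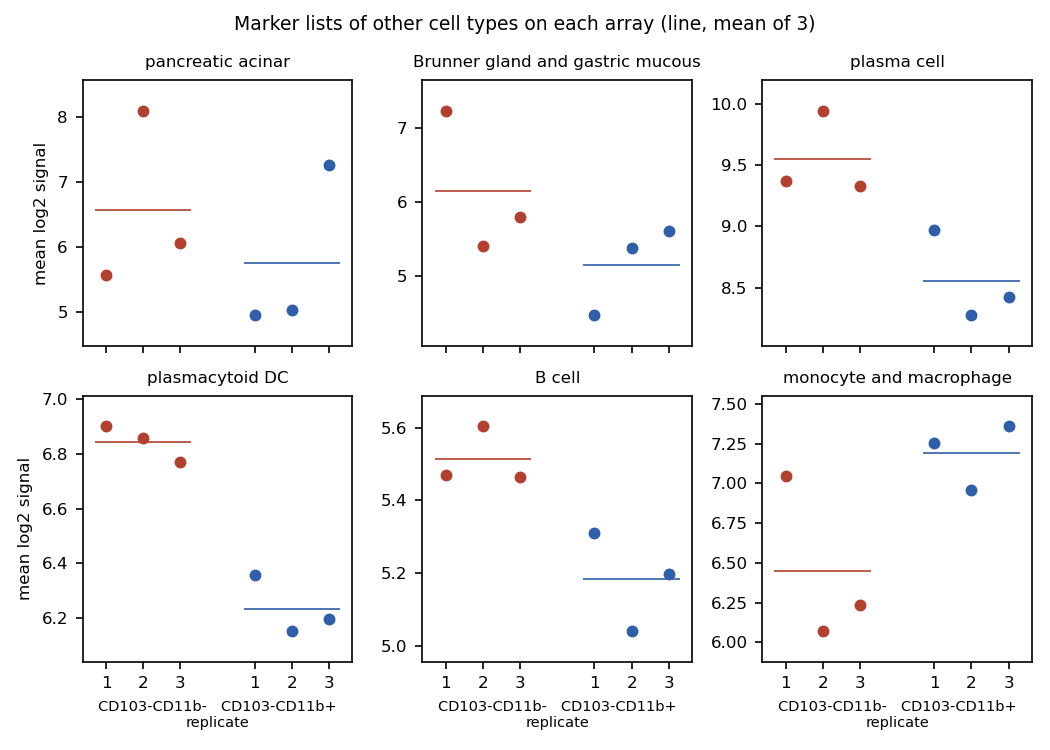
Mean log2 signal (vertical axis) of 6 marker lists of other cell types on each of the 6 arrays (horizontal axis, replicates 1 to 3 of each population). The acinar list peaks in CD103-CD11b- replicate 2 and CD103-CD11b+ replicate 3, the Brunner gland and gastric list in CD103-CD11b- replicate 1, and the plasma cell and plasmacytoid DC lists are higher on all 3 CD103-CD11b- arrays.

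The array richest in acinar RNA was replicate 2 in CD103-CD11b- DCs and replicate 3 in CD103-CD11b+ DCs. Without this pair 33 genes were higher and 41 lower. The 10 cDC1 genes were all still higher and the 6 cDC2 genes all still lower, with medians of 1.61 and -0.613. In the same setting 1 of the 4 plasmacytoid DC genes and none of the plasma or B cell genes passed, with medians of 0.27, 0.72 and 0.091. Without CD103-CD11b- replicate 1 and CD103-CD11b+ replicate 3, the arrays richest in Brunner gland RNA, 41 genes were higher and 79 lower. Of the 4 plasmacytoid DC genes 2 then passed, and neither *Pou2af1* nor *Tnfrsf17* did, while the plasma cell gene *Fkbp11* newly passed as higher. No B cell gene passed, and 7 of the 20 mϕ genes and 4 of the 15 complement genes were lower. The part of these tissues in the results was not tested beyond this.

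Of the genes named by rule that passed, 20 lost the call when an array was left out, with the difference keeping its direction each time. For 18 of them any of 2 to 6 arrays did so, and *Atf3* and *Ccl3* lost it without each of the 6. *Adgre1* lost it without CD103-CD11b+ replicate 3 and *Tnfrsf17* without CD103-CD11b+ replicate 2, and in no other such setting. Where the highest adjusted p came without CD103-CD11b+ replicate 3, it was 0.0117 for *Adgre1*, 0.0169 for *Cysltr1*, 0.0184 for *Fcgr3*, 0.0191 for *Ccl2*, 0.0201 for *Blnk*, 0.0219 for *Ly6d*, 0.0252 for *Ifit3*, 0.0262 for *Ccl5* and 0.0348 for *Pilrb1*. Where it came without CD103-CD11b+ replicate 2, it was 0.0103 for *Tnfrsf17*, 0.0105 for *Tnfsf9*, 0.0118 for *Ctse*, 0.0131 for *Siglech*, 0.032 for *Atf3*, 0.0351 for *Ccl3*, 0.039 for *Pou2af1* and 0.0403 for *Itgal*. Without CD103-CD11b+ replicate 1 the highest was 0.016 for *Egr2* and 0.0263 for *Tnfsf13b*, and without CD103-CD11b- replicate 2 it was 0.0428 for *Oas2*. The cDC1 and C-type lectin genes with printed values were not among the 20. Without the acinar-rich pair the calls on *Ccr9*, *Cmah*, *P2ry14*, *Ebi3* and *Hpgd* ended as well.

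List counts moved with single arrays too. The 10 higher cDC1 genes and the 6 lower cDC2 genes passed in every setting that left out 1 array. Of the 10 lower C-type lectins, 8 passed without CD103-CD11b- replicate 2 or 3 or CD103-CD11b+ replicate 1 or 3. *Clec4n* and *Clec7a* then lost the call, and without the acinar-rich pair 7 of the 10 passed. Of the 7 lower chemokines, 4 passed without CD103-CD11b- replicate 2 or 3 or CD103-CD11b+ replicate 1 or 3, and of the 6 interferon-induced genes, 3 passed without CD103-CD11b- replicate 2 or CD103-CD11b+ replicate 1 or 3. Of the 3 costimulators, 1 passed without CD103-CD11b+ replicate 1 or 2. Neither immediate early gene passed without CD103-CD11b- replicate 3 or CD103-CD11b+ replicate 1 or 2. Plasmacytoid DC genes gave 2 calls without CD103-CD11b+ replicate 2 or 3 and 6 without CD103-CD11b- replicate 3. Plasma cell genes gave 4 without CD103-CD11b- replicate 1, 1 without CD103-CD11b- replicate 2 or 3 or CD103-CD11b+ replicate 3, and 0 without CD103-CD11b+ replicate 2. Counts rose to 5 lower paired receptors without CD103-CD11b- replicate 1, to 5 lower eicosanoid genes and 3 higher transcription factors without CD103-CD11b- replicate 3, and to 3 higher B cell genes without CD103-CD11b+ replicate 1.

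Whether CD11b parts the CD103- DCs as it parts the CD103+ DCs was tested by an interaction, the difference between the CD103- populations minus that between CD103+CD11b- and CD103+CD11b+ DCs. The pair of differences shares no array. It passed in 393 genes (1.97% of those tested), 215 above 0 and 178 below. Of the 71 genes higher in CD103-CD11b- DCs, 26 were also higher in CD103+CD11b- than in CD103+CD11b+ DCs (1.32% of all genes were), and of the 90 lower genes, 55 were also lower there (1.89%). None of the 161 passed in the opposite direction, and 80 did not pass in the CD103+ compartment. For 67 of the 161 the interaction passed as well.

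Many genes of both lineages differed between the compartments. Of the 18 cDC1 genes, 10 had an interaction below 0 and none above, and of the 17 cDC2 genes, 12 had one above 0 and none below. *Ltb*, one of the 12, was above 0 in the CD103- and below 0 in the CD103+ compartment, at 1.45 and -0.98. *Irf8* differed by 2.21 in the CD103- and 4.05 in the CD103+ compartment, an interaction of -1.84 (adjusted p = 4.33e-04). For *Clec9a* it was 2.64 against 4.69, an interaction of -2.05 (adjusted p = 0.004). On the cDC2 side *Cd101* gave -2.71 against -4.60, an interaction of 1.89 (adjusted p = 1.22e-05). Genes that did not pass in the CD103- compartment had interactions of 3.43 for *Irf4*, 3.28 for *Sirpa* and 3.59 for *Trem1*, a receptor that amplifies inflammation. *Gp2*, a receptor for bacterial fimbriae, was at 8.0 ± 0.50 in CD103+CD11b+ DCs and at 4.47 and 4.37 in the CD103- populations, an interaction of 3.83 (adjusted p = 7.40e-04).

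For other genes the values in both compartments were close. *Mgl2* gave -4.37 and -4.37, an interaction of -0.003 (SE 0.29), and *Clec10a* gave -2.83 and -2.75, an interaction of -0.08 (SE 0.24). *Il1a* gave -2.83 and -2.63. The interaction did not pass for these 3 genes, with an adjusted p from 0.942 to 0.998.

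A last group passed in the CD103- compartment and not in the CD103+ compartment, with an interaction that passed. *Ccl17* differed by -3.08 against 0.06, an interaction of -3.15 (SE 0.25, adjusted p = 5.72e-06). *Apol7c* gave -2.36 against 0.68 and *Tnf* -1.63 against 0.47, with interactions of -3.03 and -2.10. For *Mrc1* the values were -2.26 and -0.25, with an interaction of -2.01, and for *Aldh1a2* -1.27 and 0.44, with -1.71. Among the higher genes, *Pou2af1*, *Tnfrsf17*, *Cmah* and *Ltb* had interactions of 3.05, 2.58, 2.45 and 2.43. All 4 had a difference below 0 in the CD103+ compartment, from -1.06 in *Pou2af1* to -0.46 in *Cmah*, none of which passed. *Ly6d* had an interaction of 2.93 and a difference of -1.04 there.

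**Figure D5:**
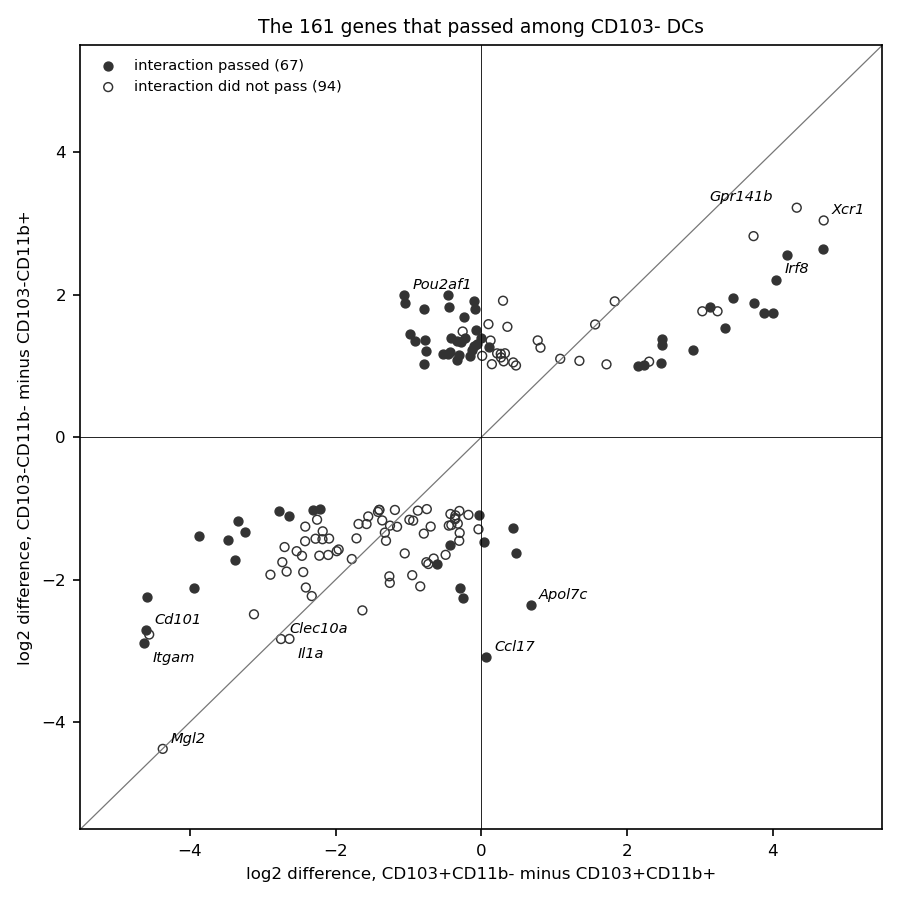
Log2 difference between CD11b- and CD11b+ DCs in the CD103+ compartment (horizontal axis) against that in the CD103- compartment (vertical axis) for the 161 genes that passed in the CD103- compartment. Each point is a gene, filled where the interaction passed; the diagonal marks equal differences, and *Mgl2*, *Clec10a* and *Il1a* lie near it while *Ccl17* and *Apol7c* lie well below.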

How the data were processed

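RNA of sorted cells was hybridised to Affymetrix Mouse Gene 1.0 ST arrays after amplification. The deposited values are log2 signals per probeset, which the authors made by RMA (background correction, quantile normalisation between arrays and summarisation). No genome build is given in the sources used here. Of 35556 probesets, 21789 had 1 gene symbol in the platform annotation, 1621 had several and 12146 were not listed. The brightest single-symbol probeset by mean over 15 arrays stood for each of 19938 genes. Arrays carry no counts, so the number of arrays limits the precision. Replicates of a population correlated at 0.9859 to 0.9946 for DCs, and none were identical.

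All 15 arrays entered one fit of 5 group means in limma 3.58.1 (R 4.3.3), and two-sided moderated tests gave each comparison and the interaction. Figures and lists used Python 3.11.15 with pandas 2.3.3, scipy 1.17.1 and matplotlib 3.10.9. The methods' *t*-test, other fits, scalings, filters and probesets, and leaving out each array, were tried as alternatives. Replicate numbers come from the sample titles. Between both CD103- populations, deviations of same-numbered arrays correlated at 0.125, 0.119 and 0.144 and all others at -0.101 to -0.047, so an alternative fit was blocked on that number, while the main fit has no block. Over all pairs of DC populations, which the interaction uses, same-numbered arrays ranged from -0.037 to 0.377 and the others from -0.306 to 0.221.

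Genes were named by rule: those of the sort, the 12 largest non-overlapping differences per direction, up to 5 passing members per list and direction, members of lists of 12 or fewer genes, the 3 brightest markers of each other cell type, the 5 largest interactions per direction among passing genes, and genes the study discusses. *C1qa*, *C1qb*, *C1qc*, *C3ar1*, *Cd14*, *Ms4a7*, *Fkbp11*, *Gbp3*, *Gcsam*, *Naaa*, *Btla*, *Clec4a2*, *Clec7a* and *Clec4n* were added after their values were seen. The members and lists were chosen with earlier results of these data known. Sequences are from RefSeq, GRCm38.p6.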

Additional observations from a re-analysis of the deposited data

Results flagged for a closer look

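The CD11b difference of the CD103- compartment and that of the CD103+ compartment were tested against each other by limma's interaction over all 19938 genes, and 215 genes had an interaction above 0 and 178 below. Among the genes described, 35 that did so are listed below. Others that did so included *Ifi205* at -2.13, *Btla* at -1.68 and *Naaa* at -1.095. *Clec4n* at 2.04, *Clec4a2* at 1.66, *Clec7a* at 1.53 and *Gbp3* at 1.22 were on the other side of 0. The interactions of the 35 on the log2 scale follow by role.

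Genes with their highest DC mean in CD103+CD11b- DCs, those of cDC1 among them, lay below 0: *Ffar4* at -2.25, *Clec9a* at -2.05, *Cxcr3* at -1.86, *Irf8* at -1.84, *Cd36* at -1.81, *Rab7b* at -1.64 and *Cd8a* at -1.49. Chemokines and mediators were below 0 as well, with *Ccl17* at -3.15, *Ccl22* at -1.83, *Tnf* at -2.10 and *Osm* at -1.09. The same sign was seen for *Apol7c* at -3.03, *Mrc1* at -2.01, *Ccr2* at -1.88 and *Aldh1a2* at -1.71.

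Genes higher in CD103+CD11b+ than in CD103+CD11b- DCs lay above 0: *Gp2* at 3.83, *Trem1* at 3.59, *Irf4* at 3.43, *Sirpa* at 3.28, *Cd209a* at 2.35, *Cd101* at 1.89 and *Itgam* at 1.74. Genes of lymphoid cells and plasmacytoid DCs were above 0 too, with *Pou2af1* at 3.05, *Ly6d* at 2.93, *Tnfrsf17* at 2.58, *Blnk* at 2.28, *Cd79a* at 2.22, *Siglech* at 1.93, *Cd300c* at 1.64 and *Cd8b1* at 1.30. The others were *Ltb* at 2.43, *Csf1r* at 1.44, *Cmah* at 2.45, *Cd209d* at 2.02 and *Cd55* at 1.40.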

How the results depend on the processing

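No alternative turned the direction of any of the 65 named genes that passed. For the other named genes a change of sign was not counted. Of 2930 values of 134 named genes under the alternatives, 2662 kept their call, 249 fell short of the limits and 19 newly passed. The main comparison gave 71 higher and 90 lower genes. On the 6 arrays of both populations alone 36 were higher and 70 lower. In that fit 15 of the named genes lost the call. They were *Pou2af1*, *Tnfrsf17*, *Siglech*, *Ly6d*, *Cmah* and *Itgal* of the higher genes. Of the lower ones they were *Adgre1*, *Ccl2*, *Ccl5*, *Cysltr1*, *Fcgr3*, *Ifit2*, *Oas1a*, *Oas2* and *Pilrb1*. Limma's treat, which tests against the log2 limit itself, left 4 and 7, and the interaction 27 above and 6 below 0. The methods' *t*-test at an unadjusted p under 0.05 gave 108 higher and 121 lower genes, and 3 and 4 after Benjamini-Hochberg adjustment. The settings that left out the arrays richest in acinar RNA (33 and 41 genes, and 73 and 39 for the interaction) and in Brunner gland RNA (41 higher) were chosen after seeing the data, and they also have fewer arrays. Leaving out 1 array gave 33 to 76 higher and 61 to 98 lower genes. The higher count was 33 without CD103-CD11b+ replicate 2, 41 without CD103-CD11b+ replicate 3 and 45 without CD103-CD11b- replicate 2. With the replicate number as a block 72 were higher and 101 lower, 69 and 89 of them the same genes, and the interaction gave 227 and 185. Among the named genes the block ended no call of the main comparison but that of *Pou2af1*. The 3 arrays per population limit the precision of every value, and the cause of the other shifts was not tested.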
